A study of Mus musculus with 8 samples.

Results

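The 8 genes described here encode the bombesin-like peptides, cholecystokinin and the receptors of both. They are the peptide precursors Grp, Nmb and Cck and the receptors Grpr, Nmbr, Brs3, Cckar and Cckbr. The members were taken by gene name from the annotation of the arrays, which carried 10 probes for these 8 genes among 55681 probes with 34836 gene names. A probe was tested where some nucleus showed it well above background throughout, which left 7 of the 8 members among 27425 genes. Cckar was the member that did not pass.

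Neurons of the Nkx2-1 lineage were collected from the dorsomedial nucleus (DMH, 3 samples), the ventromedial nucleus (VMH, 3 samples) and the arcuate nucleus (Arc, 2 samples) of the mouse hypothalamus. All samples came from 2-month-old females that carried an Nkx2-1-CreERT2 driver and a Rosa-ZsGreen reporter and had received tamoxifen, so that cells with an active Nkx2-1 gene at the time of injection turned green. Green neurons were cut out by laser and pooled, and each pool was hybridised to 1 red-channel Agilent array. The labels tie no pool to an animal and do not say when tamoxifen was given. The p-values therefore measure the spread between these pools, which may be partly technical, and pools may share animals.

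Gastrin-releasing peptide (Grp) and neuromedin B (Nmb) are the mammalian relatives of the frog peptide bombesin. They are cut from precursors, stored in dense-core granules and bind the receptors GRPR and NMBR, while BRS3 is a related receptor without an established natural ligand, and mice that lack it become obese. Cholecystokinin (Cck), a peptide of gut and brain, acts through CCKAR and CCKBR, and the second of these also binds gastrin. Most of these receptors signal through the G protein Gq, phospholipase C and protein kinase C. In the mouse, cholecystokinin neurons of the parabrachial nucleus are known to project to the VMH, and neurons with Brs3 in the DMH are known for a part in energy expenditure and body temperature.

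Levels are log2 processed signals minus the 75th percentile of the array. A level of 0 is a spot as bright as that percentile, and 1 unit is a factor of 2. Levels of different probes depend on the probe and are not compared. Differences were tested with limma on all 8 arrays, with Benjamini-Hochberg adjustment over all genes of the comparison and a threshold of 0.05. In pooled samples, fewer cells that express a gene and less RNA per cell cannot be told apart.

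The 75th percentile of the signal was 2107 to 3042 on DMH arrays, 1866 to 2036 on VMH arrays and 1806 to 1818 on Arc arrays, and 72.4% to 78.7% of probes were well above background. Arrays of the same nucleus correlated at 0.940 to 0.964 and arrays of different nuclei at 0.905 to 0.951. Of 6 DMH markers, 5 were called higher in DMH than in VMH and 2 higher in DMH than in Arc. Of 6 VMH markers, 4 were called lower in DMH than in VMH and 2 higher in VMH than in Arc. Of 7 Arc markers, 5 were called lower in DMH than in Arc and 7 lower in VMH than in Arc. Of all genes, 1.23%, 0.419% and 0.977% were called for DMH minus VMH, DMH minus Arc and VMH minus Arc. The marker lists were chosen with earlier results of these data known, so these counts are a description and not an independent check. The VMH marker Nr5a1 was well above background on every array, with means of 1.88 in DMH, 3.20 in VMH and 2.33 in Arc. All arrays were on 1 slide and from 1 scan.

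Among the peptide precursors, Grp and Cck were high in DMH and Nmb was not. Grp was well above background on the DMH arrays and on no others. Cck was highest in DMH and lower in VMH, and in Arc it did not rise well above background. Nmb was well above background on all arrays and read lowest in DMH, by a difference that did not pass the test. The plot of levels by nucleus shows every probe of the 8 genes.

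**Figure D1:**
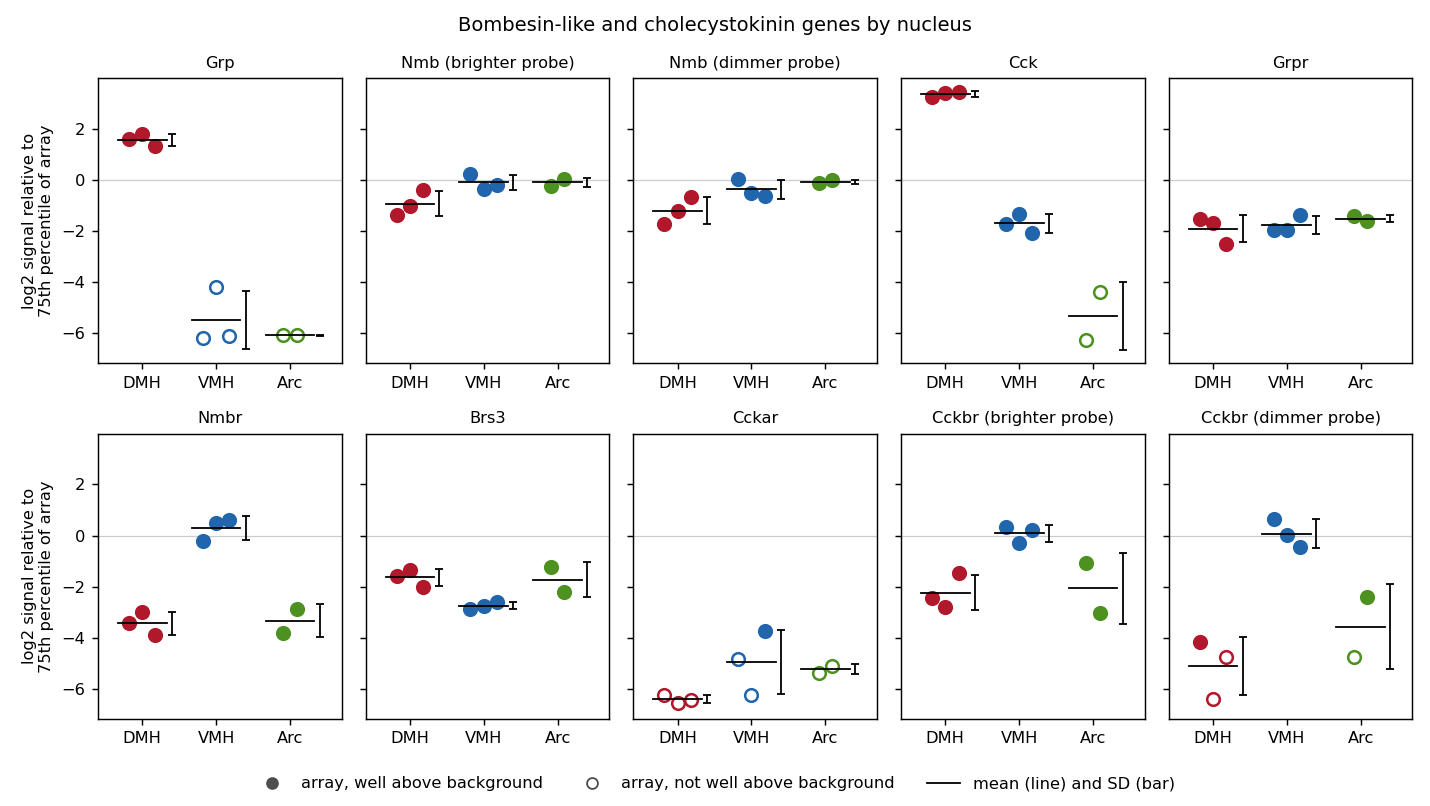
Level (y axis, log2 signal minus the 75th percentile of its array) of the 10 probes of the 8 genes in DMH, VMH and Arc (x axis). Each point is 1 array, filled where the probe was well above background, and lines and bars are the mean and SD. Grp and Cck sit above 1 on all 3 DMH arrays and below -1 on all other arrays, while Nmbr and both Cckbr probes sit highest on the 3 VMH arrays.

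Grp was read by 1 probe (mm9 chr18:66046107-66046166, plus strand). Its levels were 1.61, 1.79 and 1.32 in DMH, against -6.19, -4.17 and -6.10 in VMH and -6.08 and -6.05 in Arc. The groups were far apart, and no VMH or Arc array showed the probe well above background. The means were 1.57 ± 0.23 in DMH (SD, n = 3), -5.48 ± 1.14 in VMH (SD, n = 3) and -6.07 ± 0.02 in Arc (SD, n = 2). Because spots below background give only a bound, Grp was at least 57.3-fold higher in DMH than in VMH and at least 47.9-fold higher in DMH than in Arc. Here the bound sets each dim spot to the lowest signal among probes well above background on its array, or to its own signal if that is higher. Some spots brighter than that lowest signal were not well above background, so the bounds given here hold under this rule and are not strict limits. The fitted log2 differences were 7.06 (SE 0.51, adjusted p = 0.00203) and 7.64 (SE 0.57, adjusted p = 0.00408). Grp passed the filter through DMH alone, and these SEs and adjusted p-values rest in part on spots below background. Between VMH and Arc both groups lay below background and no fold is given.

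Grp is also known as a peptide of the suprachiasmatic nucleus, which lies in front of these nuclei. Of 10 markers of the suprachiasmatic and paraventricular nuclei 7 were tested, and 1 of them, Rorb, was higher in DMH than in VMH (means 4.09 and 1.91, adjusted p = 0.0145). That call was lost under 4 of 19 alternative settings. Another, Six6, was lower in DMH than in Arc (means -2.32 and -0.93), with an adjusted p of 0.048, close to the threshold. Prok2, Sim1 and Crh were below the filter, and Vip averaged -4.42 in DMH, -4.59 in VMH and -3.88 in Arc. Vip was well above background on 2 DMH, 0 VMH and 2 Arc arrays, so its DMH and VMH averages are not exact levels. The summed level of the 7 markers was 3.93 to 4.56 in DMH, 2.24 to 2.91 in VMH and 3.34 to 3.63 in Arc. Rorb, the brightest probe, carries this sum: the other 6 markers read lower in DMH than in Arc, and the median difference of the 7 was 0.16 for DMH minus VMH and -0.57 for DMH minus Arc. The part of these cells in the Grp and Cck levels was not tested.

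Cck was read by 1 probe (mm9 chr9:121398943-121399002, minus strand). Its levels were 3.25, 3.41 and 3.44 in DMH, -1.71, -1.32 and -2.07 in VMH, and -6.26 and -4.37 in Arc. The 3 nuclei did not overlap, DMH arrays lay within 0.2 of each other, and neither Arc array showed the probe well above background. The means were 3.36 ± 0.10 in DMH (SD, n = 3), -1.70 ± 0.38 in VMH (SD, n = 3) and -5.31 ± 1.34 in Arc (SD, n = 2).

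Cck was 33.4-fold higher in DMH than in VMH, a log2 difference of 5.06 (SE 0.45, 95% interval 4.01 to 6.11, adjusted p = 0.00384). In DMH it was at least 166-fold higher than in Arc, with a fitted log2 difference of 8.68 (SE 0.51, adjusted p = 0.00169). VMH was at least 4.97-fold higher than Arc (log2 difference 3.62, SE 0.51, adjusted p = 0.0225). This last call rested on single pools: adjusted p was 0.0539 without DMH replicate 3, 0.0795 without VMH replicate 1, 0.0742 without VMH replicate 2 and 0.0624 without VMH replicate 3. The slide row was inferred from the naming of the arrays and is not a label. With it held fixed, Cck differed between DMH and VMH by 5.39 in row 1 and 4.95 in row 2. Between VMH and Arc, Cck differed by 2.30 in row 1 and 4.75 in row 2. Each row held 1 Arc array, with Cck below background, so these last values are not exact sizes.

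The 250 bases before the RefSeq start of Cck (GRCm38.p6 chr9:121495695-121495944, minus strand) are shown because Cck passed the test in all 3 pairs of nuclei. In the human gene, an E-box and a CRE-like element ahead of the start are known control elements. Capitals mark E-boxes (CANNTG) and the CRE half-site (TGACG, here on the reverse strand as CGTCA).
Cck promoter: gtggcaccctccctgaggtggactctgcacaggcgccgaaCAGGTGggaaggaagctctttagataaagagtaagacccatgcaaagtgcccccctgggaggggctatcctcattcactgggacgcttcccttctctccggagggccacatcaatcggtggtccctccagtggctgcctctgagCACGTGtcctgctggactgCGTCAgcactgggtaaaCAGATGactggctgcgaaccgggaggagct
The E-boxes begin at -210, -66 and -30 from the start and the half-site at -47. Matches were sought on both strands, and the marked motifs do not overlap. An E-box was found in 66.2% of the 32851 promoter windows of this length and a CRE half-site in 17.8%, so both motifs are common. Among the 6 members whose promoter was searched, the E-box was found in 4 and the half-site in 2, Cck and Grpr. Grp and Cckar were not among these 6. The full CRE (TGACGTCA), the TATA box (TATAAA) and the letters CAAGTG, a core of NKX2-1 sites, were found in 0 of the 6 windows and in 1.55%, 12.4% and 11.6% of all windows. The letters GGGCGG of a GC box were found in 2 of 6, Nmb and Nmbr, and in 32.7% of all windows.

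Nmb was read by 2 probes that share 52 bases, so they are not independent. With the brighter probe (mm9 chr7:88047128-88047187, minus strand) its levels were -1.36, -1.003 and -0.41 in DMH, 0.22, -0.33 and -0.18 in VMH, and -0.23 and 0.04 in Arc. All DMH arrays lay below all other arrays. The log2 difference was -0.83 for DMH minus VMH (95% interval -1.49 to -0.16, adjusted p = 0.273) and -0.83 for DMH minus Arc (adjusted p = 0.257), and neither passed. The dimmer probe read -1.73, -1.22 and -0.66 in DMH, 0.05, -0.51 and -0.64 in VMH, and -0.12 and -0.02 in Arc. VMH and Arc did not differ detectably in Nmb (95% interval -0.75 to 0.74).

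Gast, the precursor of gastrin, is the relative of cholecystokinin that shares the receptor CCKBR. It averaged 0.25 in DMH, -0.04 in VMH and -0.12 in Arc, with all arrays of the 3 nuclei well above background and overlapping. The difference of 0.30 between DMH and VMH did not pass (adjusted p = 0.745).

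Among the receptors, Nmbr passed the test and was high in VMH. Cckbr also read highest in VMH on both of its probes, but the probe that stands for the gene missed the threshold. Brs3 read lowest in VMH without passing, Grpr showed no detectable difference, and Cckar was well above background on 1 of 8 arrays.

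Nmbr, the receptor that prefers neuromedin B, was read by 1 probe (mm9 chr10:14490303-14490362, plus strand). Its 60 bases form an open reading frame that ends in the stop codon, so that the probe reads the end of the coding sequence. It is shown as the sequence behind the receptor call, with the stop codon in capitals.
Nmbr probe: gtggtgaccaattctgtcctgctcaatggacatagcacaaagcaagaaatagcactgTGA
The levels were -3.44, -3.01 and -3.87 in DMH, -0.22, 0.51 and 0.61 in VMH, and -3.79 and -2.86 in Arc, all well above background. Every VMH array lay above every other array, and DMH and Arc overlapped. The means were -3.44 ± 0.43 in DMH (SD, n = 3), 0.30 ± 0.45 in VMH (SD, n = 3) and -3.33 ± 0.66 in Arc (SD, n = 2).

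Nmbr was 13.3-fold lower in DMH than in VMH (log2 difference -3.74, SE 0.36, 95% interval -4.57 to -2.90, adjusted p = 0.00516). In VMH it was 12.3-fold higher than in Arc (log2 difference 3.62, SE 0.40, adjusted p = 0.0117). Both calls held under all 19 alternative settings. Within slide row 1 the difference of DMH minus VMH was -3.83 and within row 2 it was -4.02. DMH and Arc differed by -0.11, with a 95% interval of -1.04 to 0.82 and an adjusted p of 0.917. Nmb and Nmbr were both well above background on all 8 arrays. The peptide and receptor transcripts of the neuromedin B pair were thus measured in every nucleus.

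Cckbr, the cholecystokinin receptor of the brain, was read by 2 probes at separate places in the gene. The probe that stands for the gene spans 220 bases of mm9 (chr7:112582327-112582546, plus strand) with its 60 bases, so that it joins separate stretches of the genome and reads spliced transcripts. It is shown because both probes give the same order of nuclei and different test results.
Cckbr probe: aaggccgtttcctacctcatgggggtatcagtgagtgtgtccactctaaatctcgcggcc
Its levels were -2.45, -2.79 and -1.48 in DMH, 0.33, -0.29 and 0.24 in VMH, and -1.07 and -3.04 in Arc. All VMH arrays lay above all other arrays, and the Arc arrays were 1.97 apart. The difference of DMH minus VMH was -2.33 (95% interval -3.58 to -1.09, adjusted p = 0.108) and that of VMH minus Arc was 2.15 (95% interval 0.75 to 3.54, adjusted p = 0.174).

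The second Cckbr probe (mm9 chr7:112584581-112584640, plus strand) read -4.17, -6.38 and -4.73 in DMH, 0.65, 0.04 and -0.46 in VMH, and -4.74 and -2.40 in Arc. It was well above background on 1 of 3 DMH arrays, on all VMH arrays and on 1 of 2 Arc arrays. With every probe fitted on its own, this probe was lower in DMH than in VMH (adjusted p = 0.0239 over 41479 probes). Its fitted log2 difference of -5.17 rests on 2 DMH spots below background and is not an exact size. For the same probe, VMH minus Arc was 3.65 (adjusted p = 0.12), with 1 Arc spot below background. With the mean of both probes, adjusted p was 0.0057 for DMH minus VMH and 0.0279 for VMH minus Arc. That mean includes the second probe, which passed the filter through VMH alone, so these p-values also rest in part on spots below background. The call on Cckbr thus depended on the probe, and normexp background correction also brought DMH minus VMH past the threshold (adjusted p = 0.0251).

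Brs3 (mm9 chrX:54301830-54301889, plus strand) read -1.58, -1.33 and -1.995 in DMH, -2.86, -2.76 and -2.60 in VMH, and -1.25 and -2.21 in Arc. All VMH arrays lay below all other arrays. The difference was 1.103 for DMH minus VMH (95% interval 0.42 to 1.79, adjusted p = 0.155) and -1.01 for VMH minus Arc (adjusted p = 0.24), so neither passed. DMH and Arc overlapped (difference 0.09, 95% interval -0.67 to 0.85).

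Grpr, the receptor of gastrin-releasing peptide (mm9 chrX:159952638-159952697, minus strand), read -1.51, -1.70 and -2.48 in DMH, -1.97, -1.94 and -1.35 in VMH, and -1.42 and -1.61 in Arc. The nuclei overlapped, and all arrays were well above background. The difference of DMH minus VMH was -0.15 (95% interval -0.85 to 0.56, adjusted p = 0.873) and that of DMH minus Arc was -0.39 (95% interval -1.18 to 0.40, adjusted p = 0.61). A difference of about 1 unit or more thus lies outside the first of these intervals, and smaller ones could not be resolved.

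Cckar, the cholecystokinin receptor best known from the gut and vagus (mm9 chr5:54090045-54090104, minus strand), read -6.22, -6.53 and -6.41 in DMH, -4.83, -6.23 and -3.73 in VMH, and -5.36 and -5.08 in Arc. The last VMH array, at -3.73, was the one on which it was well above background. Tested without a filter on dim probes, its difference of DMH minus VMH was -1.46 (adjusted p = 0.409), and the adjusted p of VMH minus Arc was 0.91.

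Counted over the comparisons of pairs, 3 of 7 tested members passed for DMH against VMH, with Grp and Cck higher and Nmbr lower in DMH, where 1.23% of all 27424 genes passed. For DMH against Arc 2 members passed, Grp and Cck, both higher in DMH, against 0.419% of all genes. For VMH against Arc 2 members passed, Cck and Nmbr, both higher in VMH, against 0.977% of all genes. The median difference of the 7 members was -0.15 for DMH minus VMH, -0.11 for DMH minus Arc and 0.58 for VMH minus Arc, where the medians of all genes were -0.04, -0.05 and -0.03. Grp passed the filter through DMH alone, and its calls and those of Cck against Arc rest in part on spots below background. The members were chosen with earlier results of these data known, so these counts are a description and not an independent check. The comparisons share arrays and are not independent of each other.

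**Figure D2:**
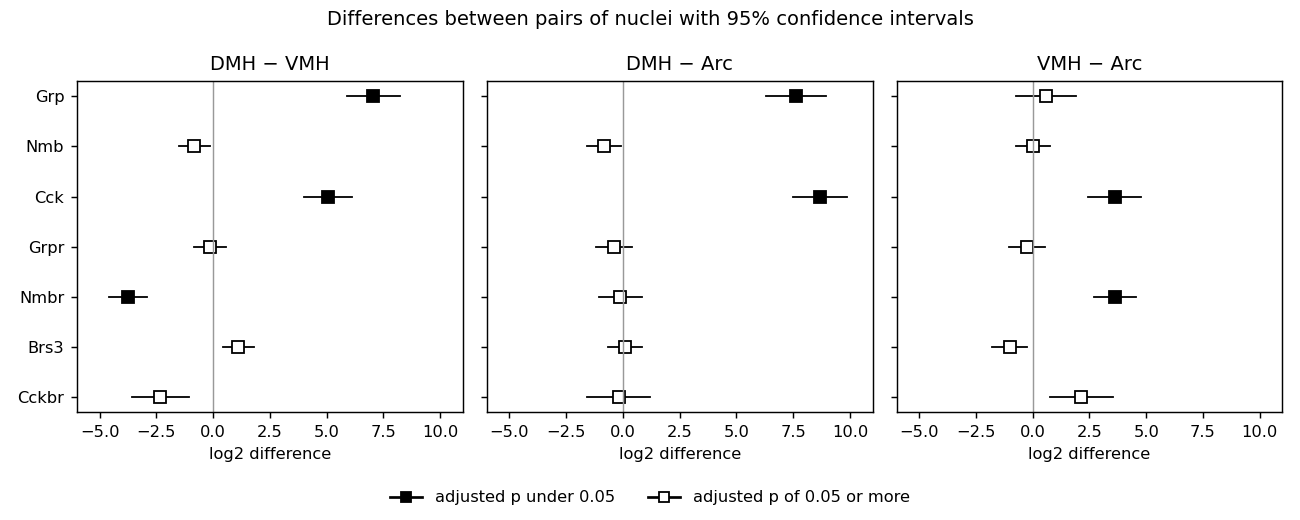
Log2 differences (x axis) of the 7 tested members (rows) for DMH minus VMH, DMH minus Arc and VMH minus Arc, with 95% confidence intervals as lines. Filled squares have an adjusted p under 0.05: Grp, Cck and Nmbr in the first panel, Grp and Cck in the second, and Cck and Nmbr in the third.

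The plot of the members among all genes places these differences in the whole distribution. For DMH minus VMH, 17 genes had a larger absolute fitted difference than Cck, 61 a larger one than Nmbr, 253 a larger one than Cckbr and 1745 a larger one than Brs3. For VMH minus Arc, 91 genes had a larger one than Nmbr and 2807 a larger one than Brs3. Differences against spots below background (Grp in VMH and Arc, Cck in Arc) are bounds and have no exact rank. Grpr had 19889, 12787 and 16584 genes above it in absolute size for DMH minus VMH, DMH minus Arc and VMH minus Arc.

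**Figure D3:**
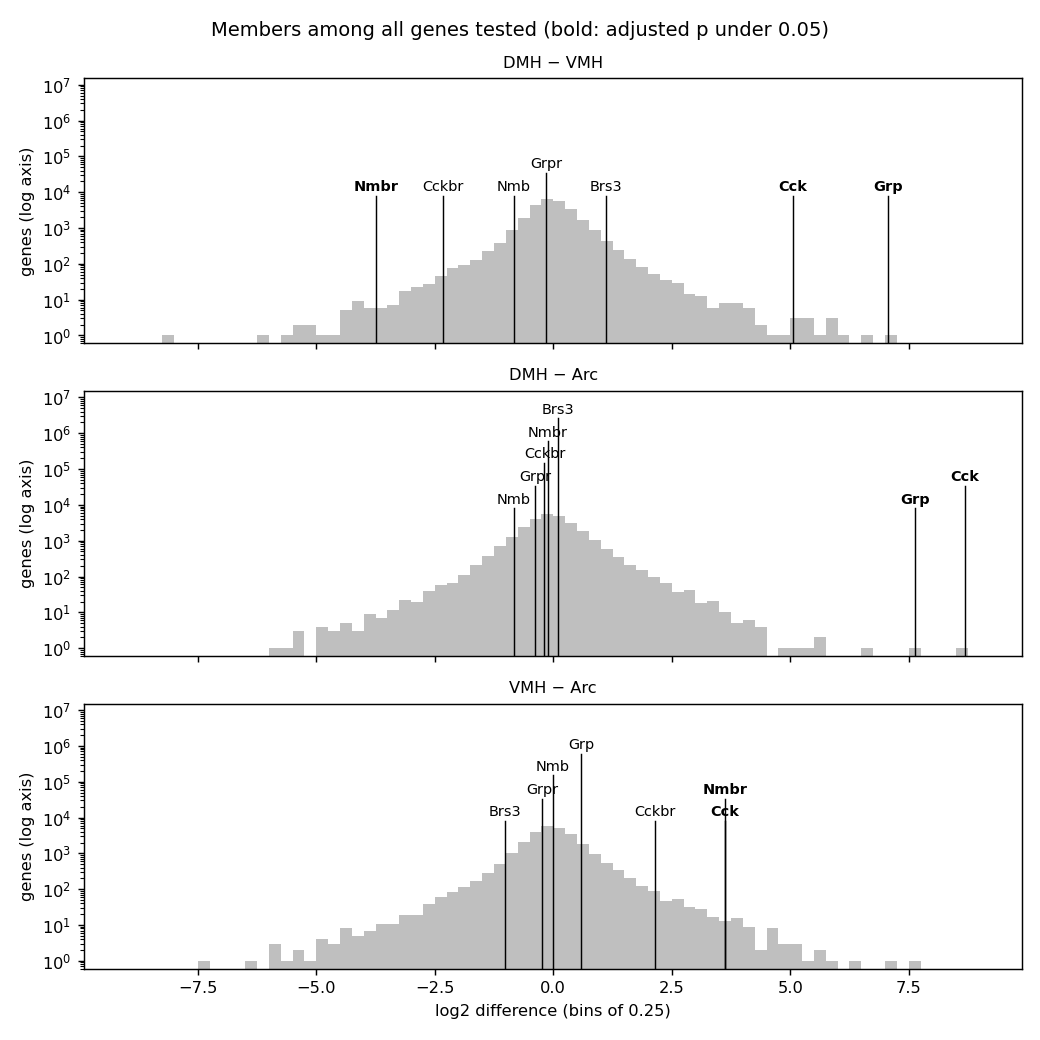
Number of genes (y axis, log scale) by log2 difference (x axis, bins of 0.25) for the 3 pairs of nuclei, with a vertical line at each tested member; line height is for legibility. Names in bold passed the test: Grp and Cck, whose fitted values there rest on Arc spots below background, lie at the right for DMH minus Arc, and Nmbr lies at -3.74 for DMH minus VMH and at 3.62 for VMH minus Arc.

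Each nucleus was also compared with the average of the others, the comparison that asks which genes are enriched in it. For DMH 3 members passed, against 0.842% of all genes. The limits given for the counts over pairs hold for these counts too. DMH exceeded that mean by at least 52.4-fold for Grp (adjusted p = 0.0021) and by at least 74.4-fold for Cck (adjusted p = 0.00194). Nmbr read -1.92 (adjusted p = 0.0474) although DMH and Arc overlap. The Nmbr call against the mean was lost under 10 of 19 alternatives. It was lost without any 1 of the DMH arrays, any 1 of the VMH arrays or Arc replicate 2, with adjusted p between 0.0606 and 0.172.

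For VMH 2 members passed, against 1.34% of all genes. Nmbr was 12.8-fold higher in VMH than the mean of DMH and Arc (log2 difference 3.68, SE 0.32, adjusted p = 0.00403). Grp was lower (log2 difference -3.24, adjusted p = 0.0204), which restates its level in DMH, since VMH and Arc were both below background. Cckbr read 2.24 (95% interval 1.12 to 3.36, adjusted p = 0.0864) and did not pass with its first probe, while its second probe, partly below background in DMH and Arc, passed (adjusted p = 0.0285). For Arc 2 members passed, against 0.613% of all genes, both lower: Cck (at least 28.7-fold, adjusted p = 0.00255) and Grp (adjusted p = 0.0232). This Grp call also restates its level in DMH, with VMH and Arc both below background. The Grp calls of VMH and of Arc rested on single pools. The first was lost without any 1 array other than VMH replicate 2, with adjusted p between 0.0513 and 0.0873. The second was lost without any 1 DMH or Arc array, with adjusted p between 0.0528 and 0.0748.

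Genes that handle peptides and their signals were counted against all genes, of which 1.23%, 0.419% and 0.977% passed for DMH minus VMH, DMH minus Arc and VMH minus Arc. In the same order 3621 of 27424, 4562 of 27423 and 3887 of 27422 genes had an unadjusted p under 0.05. In lists of this size, 0 or 1 called genes are too few to set apart from such shares. Of 12 genes that cut and modify peptide precursors, among them the convertases Pcsk1 and Pcsk2, limma called 0 in any pair of nuclei, where 2 in each pair had an unadjusted p under 0.05. Their median differences were -0.05, 0.00 and -0.03 for DMH minus VMH, DMH minus Arc and VMH minus Arc. The convertase gene Pcsk5 had the smallest p. It averaged -0.95 in DMH, -2.59 in VMH and -4.78 in Arc, where 1 of 2 arrays was well above background. Its fitted difference of 3.83 between DMH and Arc rests in part on a spot below background and did not pass (adjusted p = 0.0727). Under 4 of 18 alternatives it did. Leaving out Arc replicate 1 left a single Arc array, at -6.11 and below background, and the difference then read 5.16, which is not an exact size.

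Of 9 genes of the dense-core granule, in which these peptides are stored, limma also called 0 in any pair, where 4, 1 and 4 had an unadjusted p under 0.05. Cadps2, which primes granules for release, averaged -0.61 in DMH, 1.68 in VMH and -0.32 in Arc, and the difference of DMH minus VMH did not pass (-2.29, adjusted p = 0.065). It passed under 6 of 19 alternatives, and without Arc replicate 2, where another of its probes stood for the gene, it read -1.22 (adjusted p = 0.0403).

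Of 16 genes of the Gq pathway, through which most of these receptors act, 1 passed for DMH against VMH: Prkcb, a protein kinase C gene, was lower in DMH. Prkcb read 0.22, 0.55 and 0.63 in DMH, 1.86, 1.73 and 1.98 in VMH, and 0.53 and 1.05 in Arc (DMH minus VMH -1.39, adjusted p = 0.0315). Its call was lost without any 1 of the DMH or VMH arrays (adjusted p 0.0832 to 0.115), with the replicate block (0.066), with a block for slide row (0.0686) and with no filter on dim probes (0.0508). The median of the 16 genes was -0.16 for DMH minus VMH and 0.42 for VMH minus Arc, and limma called 0 of them in DMH against Arc and in VMH against Arc, where 4 each had an unadjusted p under 0.05.

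Of 9 peptidase genes that can break down such peptides 7 were tested, and Anpep, an aminopeptidase gene, was higher in VMH than in Arc. It averaged -1.66 in VMH and -4.06 in Arc, where 1 of 2 arrays was well above background. The fitted log2 difference of 2.40 (adjusted p = 0.0152) rests in part on a spot below background and is not an exact size. That call was lost without VMH replicate 2 (adjusted p = 0.0567), VMH replicate 3 (0.0589) or Arc replicate 1 (0.0705), and with the replicate block (0.0744). Mme and Enpep were below the filter. Of the 7 tested, 4, 2 and 2 had an unadjusted p under 0.05 for DMH minus VMH, DMH minus Arc and VMH minus Arc.

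**Figure D4:**
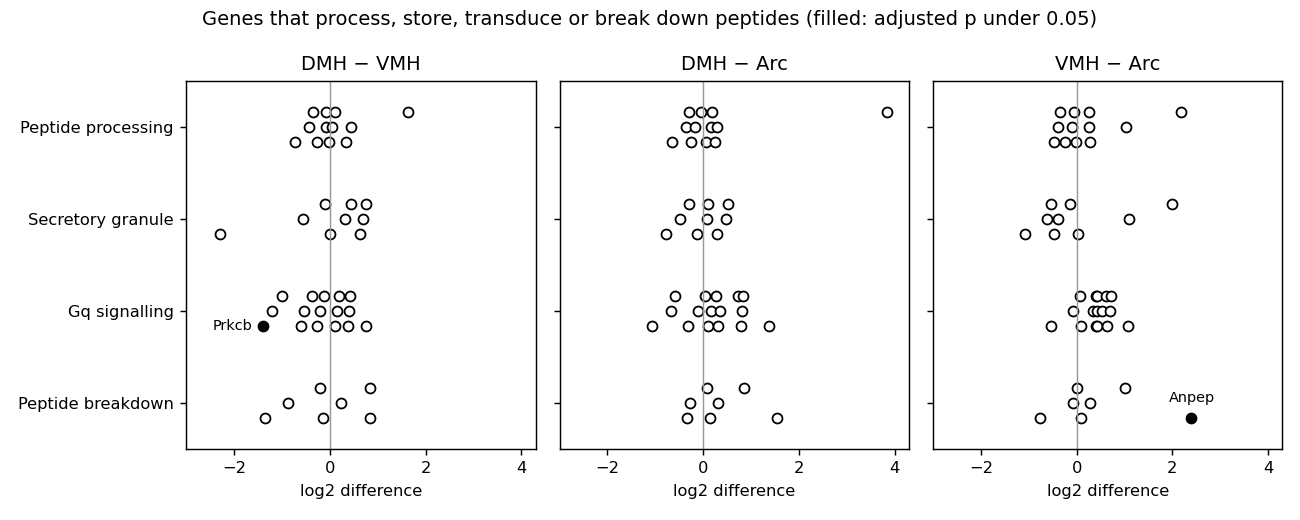
Log2 differences (x axis) of the tested genes that process peptides (12), make up the secretory granule (9), carry Gq signals (16) and break peptides down (7), for the 3 pairs of nuclei; each point is 1 gene and its height within a row is for legibility. Filled points passed the test: Prkcb in DMH minus VMH and Anpep in VMH minus Arc.

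Markers of other cells that could be carried along in the pools were read from the same fit. Limma called 0 of 7 astrocyte, 0 of 7 oligodendrocyte, 0 of 7 microglial and 0 of 5 endothelial markers between DMH and VMH, where 2, 0, 1 and 0 had an unadjusted p under 0.05. Between DMH and Arc it also called 0 in each list, where 3, 2, 4 and 1 had one, with median differences of 0.49, 0.37, -0.76 and -0.26. Against the mean of VMH and Arc, the astrocyte connexin gene Gjb6 was higher in DMH (log2 difference 1.19, adjusted p = 0.0356) and the tanycyte marker Col23a1 was lower (-1.83, adjusted p = 0.0356), calls that were lost under 10 and 11 of 19 alternatives. The summed level of the 7 astrocyte markers was 5.38 to 5.70 in DMH, 5.62 to 5.90 in VMH and 5.55 to 5.75 in Arc. Aldoc carries that sum, and 5 of the 7 markers read higher in DMH than in VMH, with a median difference of 0.40. The part of astrocytes in the Grp and Cck levels was not tested. The summed level of 6 tanycyte and ependymal markers was 0.02 to 0.39 in DMH, 1.12 to 1.42 in VMH and 2.04 to 2.37 in Arc. It was thus lowest where Cck was highest, with 0 of 6 called in any pair (1, 4 and 1 at an unadjusted p under 0.05). Col23a1 carries this sum. All 6 averaged lower in DMH than in Arc. Rax (-2.03 and -2.05) and Lhx2 (-5.56 and -5.84) averaged slightly higher in DMH than in VMH, and the others lower. Vim, Nes and Lhx2 were well above background on 1, 0 and 1 of 3 DMH arrays. The part of these cells in the Cck levels was not tested. The summed level of 4 markers of the lateral hypothalamus and tuberomammillary nucleus overlapped between nuclei, at 0.44 to 2.25 in DMH, 0.77 to 1.08 in VMH and 0.25 to 1.55 in Arc.

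The genes most like the called members over the 8 arrays were named as a description, with Pearson's r over arrays that differ by nucleus, so that any gene with the same order of nuclei scores high. Of 14727 genes with a RefSeq symbol other than a clone, predicted-gene or LOC name, 52 had an r above 0.9 with Grp, and the closest were Ebf3 (0.983), Skor1 (0.972) and Mgme1 (0.969). Ebf3 and Skor1 encode transcriptional regulators. Ebf3 averaged -0.99 in DMH, -6.29 in VMH and -6.21 in Arc, and Skor1 1.01, -4.92 and -4.46 in the same order. The VMH and Arc averages of both genes lie below the lowest signals well above background on those arrays. Those signals were -4.37 to -4.11 in VMH and -4.05 to -3.97 in Arc, so the averages are not exact levels.

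With Cck, 52 genes had an r above 0.9, led by Sel1l3 (0.975), Egr2 (0.974) and Sf3a1 (0.974). Egr2, an immediate early gene, averaged 0.73 in DMH, -2.62 in VMH and -4.84 in Arc. Its Arc average lies below the lowest signal well above background on either Arc array. Nmbr had 139 such genes, led by Fam168a (0.989), Lama1 (0.985), a laminin gene, and Qrfpr (0.983), the receptor gene of the peptide QRFP. Qrfpr averaged -4.35 in DMH, 0.99 in VMH and -3.74 in Arc. Among the members themselves, r was 0.923 between Grp and Cck, 0.760 between Nmbr and Cckbr and -0.851 between Nmbr and Brs3, all over the same 8 arrays. The r of Grp with Cck rests in part on spots below background, those of Grp in VMH and Arc and of Cck in Arc.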

How the data were processed

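RNA of 8 pools of laser-cut neurons was measured on 1-colour arrays (DMH 3, VMH 3, Arc 2). Red-channel spot intensities were used as deposited. Per the file headers they had been background-subtracted and detrended, and the submitters' processing notes name Agilent Feature Extraction 11.5.1.1. Flags for spots well above background, saturated or outlying were taken as deposited, and no member spot was saturated or an outlier. Probe positions are in mm9, per the file headers. The authors' deposited table of the whole series ran in constant steps after its opening entries and was not used.

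Log2 intensities were computed from the deposited intensities, minus the 75th percentile over 59305 non-control spots of the array, and spots of a probe were averaged. The brightest probe past the filter (41480 of 55681 probes) stood for a gene, and 16361 of 27425 gene names matched a RefSeq symbol. A mean per nucleus was fitted with limma 3.58.1 (lmFit, eBayes) in R 4.3.3 (tables read by data.table, version 1.17.8), with 5 residual degrees of freedom, a prior of 2.78 and a median residual SD of 0.355. The number of arrays limits the precision. The script was tested on simulated data.

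The members, the gene lists and the tests were chosen with earlier results of these data known. Named are all members and, from each list, up to 3 called genes by adjusted p, or up to 2 leading genes if no member of it passed. For each called member the 3 genes with the highest r are also named. Some results of the lists are not reported here. Nr5a1 and Vip are given as list members outside this rule. Alternatives were normexp (offset 50), quantile normalization, another percentile, other filters, a floor, the mean of probes, every probe on its own, trended and robust eBayes, blocks for replicate number and slide row, and each array left out. Promoter sequence is RefSeq's, on GRCm38.p6.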

Additional observations from a re-analysis of the deposited data

How the results depend on the processing

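Under 19 alternatives no called member changed direction. Grp and Cck kept their calls for DMH minus VMH and DMH minus Arc in all 18 alternatives that tested them, and Nmbr kept its calls for DMH minus VMH, VMH minus Arc and VMH against the mean in all 19. Requiring a probe well above background on all 8 arrays left Grp and Cck untested by construction. The members called were then 1 for DMH minus VMH, 0 for DMH minus Arc, 1 for VMH minus Arc, and 1 for DMH, 1 for VMH and 0 for Arc, each against the mean of the rest, against 3, 2, 2, 3, 2 and 2 in the reported fit. Normexp raised the count for VMH against the mean to 4, adding Cck (adjusted p = 0.00992) and Cckbr (adjusted p = 0.0207); the cause was not tested. Leaving out 1 array at a time gave 3 to 3, 2 to 2, 1 to 2, 2 to 3, 1 to 2 and 1 to 2 members in the same order, with fewer samples in each fit. The labels do not say that replicate numbers pair the pools. Deviations from the mean of each nucleus correlated at 0.0723 to 0.185 in 7 same-numbered pairs, 2 of them above 0.1. Those of the 14 other pairs correlated at -0.126 to 0.0153. Each pool thus correlated best with its own number, a hint from the data and not the design. Deviations within a nucleus cancel by construction, and those of the 2 Arc arrays mirror each other, so these pairs are not independent. With the replicate block the members called were 3, 2, 1, 2, 1 and 1. The block ended the calls of Cck for VMH minus Arc (adjusted p = 0.0587), of Nmbr for DMH against the mean (0.0738) and of Grp for VMH (0.0551) and Arc (0.0593) against the mean. Counts over all genes moved more, in the order of comparisons above: 337, 115, 268, 231, 368 and 168 in the reported fit, against 163, 32, 74, 63, 143 and 40 with the replicate block and 167, 58, 164, 76, 215 and 79 with a block for slide row. With no filter on dim probes DMH minus VMH had 200 called genes and DMH minus Arc had 41, and with normexp DMH minus Arc had 234 and VMH minus Arc 408. Signal over background limits Grp in VMH and Arc, Cck in Arc and Cckar nearly everywhere, so folds against them are bounds.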
